A study of Mus musculus with 2 samples.

Results

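The genes described here are 10 that mark or build the dendritic cell subsets of the spleen: Xcr1, Clec9a, Batf3, Irf8, Itgax, Cd209a, Zbtb46, Flt3, Siglech and Tcf4. They were taken from a list of conventional and plasmacytoid dendritic cell genes, through the transcript accession that each array probe carries. All 10 had a probe, 15 probes in all, out of 20655 named genes on the array, and all 10 were well above background on at least 1 array, as were 13714 genes in all. RNA was from fresh spleens of healthy, untreated male mice, either Loxl3 wild-type (Loxl3+/+) or Loxl3 knock-out (Loxl3-/-), with 1 one-colour Agilent array for each genotype. Strain and age, the extent of the deletion and whether animals were pooled are not given in the sources used here. With 1 array a group no difference has a replicate check, so no p-value is given and every value describes these 2 arrays.

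Dendritic cells take up antigen and present it to T cells. Type 1 conventional dendritic cells depend on the transcription factors IRF8 and BATF3, carry the chemokine receptor XCR1 and the dead-cell receptor CLEC9A, and are known for presenting cell-associated antigen to CD8 T cells. Type 2 conventional cells mainly serve CD4 T cells and in mouse spleen carry lectins such as CD209a, while plasmacytoid cells depend on TCF4 and are known for making type I interferon. Few of these genes belong to dendritic cells alone in a spleen. Irf8 and Tcf4 are also expressed in B cells, Itgax in some macrophages and NK cells, Flt3 in blood progenitors and Zbtb46 in endothelium. In whole spleen, fewer cells of a type and less RNA per cell cannot be told apart.

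The Loxl3 probe, with processed signals of 117 (wild type) and 125, differed by −0.43 ± 0.29 on the scaled log2 scale and was thus no clear check of the genotype, so the second array is called knockout-labelled. Spleen identity was checked on markers: 5 of 5 splenic stroma genes (such as Tlx1 and Nkx2-5), 8 of 8 B cell genes and 7 of 7 red pulp macrophage genes were well above background on both arrays. The stroma genes had a median difference of 0.49, with Tcf21 alone at 2-fold (1.16). All 7 measured pancreatic enzyme genes passed 2-fold upward on the knockout-labelled array (summed signals, in multiples of each array's 75th percentile, 5.72 for wild type and 103 for the other), and all 8 neutrophil and precursor genes passed 2-fold downward (203 and 59.0). By their brightest probes, all 7 and all 8 were well above background on both arrays. The part of these differences in the values below was not tested.

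Of the 10 genes, 9 differed by less than 2-fold and 1, Xcr1, was far lower on the knockout-labelled array. By its brightest probe none of the 10 was 2-fold higher, although a dimmer probe of Cd209a, not well above background for wild type, was. Over all 13714 measured genes, 2.57% were 2-fold higher and 2.26% were 2-fold lower, 4.83% together. Of these calls 53.2% were higher, against 41.3% when arrays were scaled on their median and 70.9% when scaled on probes above background on both. The median difference of the 10 was −0.01, against −0.09 over all genes, with 5 genes above 0 and 5 below. Each difference is on the log2 scale, positive where the knockout-labelled array was brighter, after subtraction of the array's 75th percentile. Errors after ± come from the scanner software, carried from the spot errors, and hold no variation between animals. By that error 5 of the 10 lay within 2 errors of 0. Over all measured genes the 25th and 75th percentiles of the difference were −0.34 and 0.19, with a median error of 0.21. Lying within 2 errors is thus common on these arrays and sets no gene apart.

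The type 1 genes that part from each other in these data, Xcr1 and Clec9a, are shown with Itgax, which had the largest positive difference of the 10 by brightest probe, by the 250 bases before their transcription starts (RefSeq, GRCm38.p6, 5′ to 3′). Capitals mark letters of the motifs searched on both strands: the AP-1 motif TGANTCA, bound by BATF3 with JUN proteins, an IRF motif of 2 GAAA half-sites with 2 bases between them, and the E-box CANNTG, bound by TCF4. No matches of different motifs overlapped in these 3 windows.
Xcr1, chr9:123862030-123862279, minus strand: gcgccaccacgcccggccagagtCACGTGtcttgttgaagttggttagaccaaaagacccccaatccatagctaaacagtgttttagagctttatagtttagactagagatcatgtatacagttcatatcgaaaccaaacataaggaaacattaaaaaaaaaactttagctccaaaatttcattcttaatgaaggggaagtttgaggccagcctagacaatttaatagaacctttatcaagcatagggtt
Clec9a, chr6:129408612-129408861, plus strand: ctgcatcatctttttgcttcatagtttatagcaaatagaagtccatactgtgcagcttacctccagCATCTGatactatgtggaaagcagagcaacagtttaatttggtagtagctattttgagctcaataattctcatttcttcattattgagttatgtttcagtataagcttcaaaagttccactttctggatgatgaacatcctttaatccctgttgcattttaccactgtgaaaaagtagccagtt
Itgax, chr7:128129300-128129549, plus strand: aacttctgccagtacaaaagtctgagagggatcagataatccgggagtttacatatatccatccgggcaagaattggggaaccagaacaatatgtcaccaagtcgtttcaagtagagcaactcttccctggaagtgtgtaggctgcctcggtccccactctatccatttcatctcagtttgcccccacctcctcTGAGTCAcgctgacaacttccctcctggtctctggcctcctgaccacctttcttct

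Xcr1 held 1 E-box match, 227 bases before its start, and Clec9a 1, 184 bases before. Itgax held an AP-1 match 56 bases before its start and no E-box. Of the 9 genes with a window in the table, AP-1 letters were in 2 (Itgax and Zbtb46), E-box letters in 8, and the IRF motif in none. Irf8 had more than 1 window, so these genes had 10 windows, of which 2 held AP-1 letters, 8 an E-box and 0 the IRF motif. Over all 32851 windows of this length, 6.75% held the AP-1 letters, 66.2% an E-box and 2.98% the IRF motif. These matches describe the letters and are no evidence of binding.

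Xcr1 encodes the receptor for the chemokine XCL1, which draws type 1 dendritic cells to NK and CD8 T cells. Its single probe, printed as 1 spot, had processed signals of 272 (wild type) and 54.4 (knockout-labelled), 4.997 times lower in the second before any scaling. The second value was not called well above background by the scanner software, and lay just under the lowest signal so called on that array, 55.2. The 153 negative control spots averaged 14.9 there and reached 39.8. Because the gene was measured on 1 array alone, its difference is given as a bound. Xcr1 was 7.08-fold higher or more on the wild-type array, a log2 difference of −2.82 or lower, by signals alone. The bound leaves out the software error: the measured difference was −2.84 ± 0.37, and 2 errors above it lies −2.11. With normexp background correction the bound was 3.95-fold. Among 187 genes above background for wild type only, it had the 3rd largest bound. A gene on that list passed the filter on dim probes only through the array where it was high, so its place there is a description and no measure of how rare such a difference is.

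**Figure D1:**
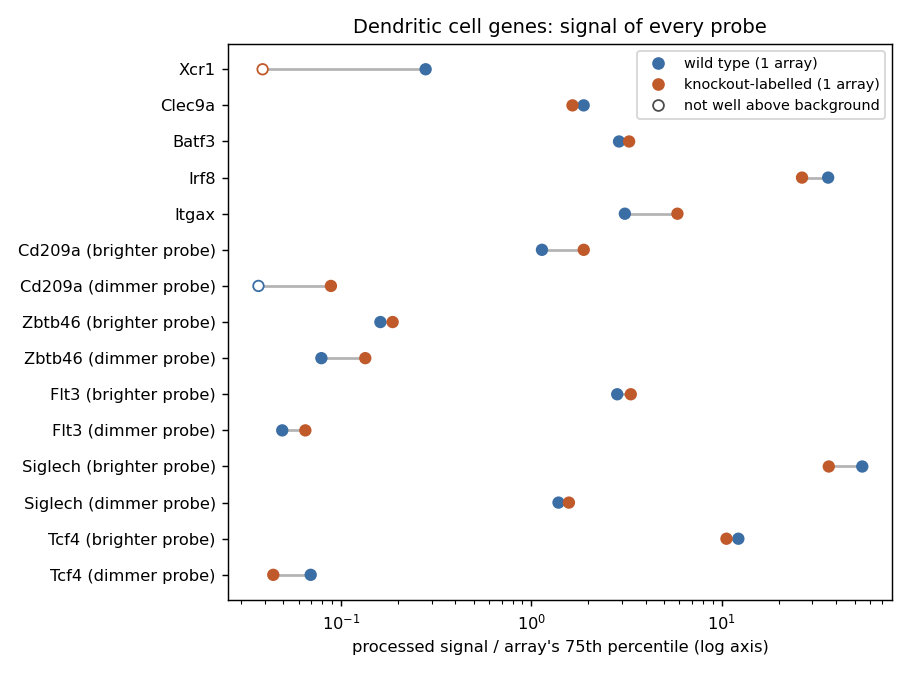
Processed signal of each of the 15 probes divided by its array's 75th percentile (log axis), 1 point per array, with open points for signals not well above background. The Xcr1 points lie far apart (27.9% and 3.89% of the 75th percentile), while the points of most other probes lie close together.

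The other type 1 genes did not share that difference. Clec9a, the receptor for actin exposed on dead cells, had signals of 1839 and 2308 on the wild-type and knockout-labelled arrays, a scaled difference of −0.19 ± 0.20. Batf3, required for the type 1 lineage, had 2820 and 4577, a difference of 0.18 ± 0.20. Both values lay within 1 error of 0. Irf8, the lineage's other main transcription factor, had 35366 and 37041, a difference of −0.46 ± 0.20. That value is close to the median of −0.40 among the 686 brightest genes, to which Irf8 belongs, and it was −0.07 with quantile normalization. The bound of Xcr1 lay a further 6.19-fold below the difference of Clec9a. It lay 7.999-fold below that of Batf3 and 5.16-fold below that of Irf8. Xcr1 passed the filter through the wild-type array alone, and the software errors hold no variation between animals. These gaps therefore describe the arrays and are no measure of support.

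A wider list held 20 type 1 dendritic cell genes. Counts at 2-fold on this list, on the later lists and among the neighbours of Xcr1 stand beside 4.83% of all measured genes. A short list with none at 2-fold is therefore not set apart from the rest of the array. Of its 17 measured genes, 8 were above 0 and 9 below, and Xcr1 was the only one at 2-fold. The list median of −0.10 turned positive in 6 of the 11 other ways of processing. The other 16 had a median of −0.04, and 13 of them lay within 2 software errors of 0. That count does not set them apart, as the 25th and 75th percentiles of all measured genes were −0.34 and 0.19. The 16 ranged from Irf8 at the low end to Cadm1, an adhesion molecule of this subset, at 0.75 ± 0.23 (signals 207 and 500). Snx22, a sorting nexin gene, was at 0.59 and Tlr3, the sensor of double-stranded RNA, at 0.19. On the lower side, Id2, an inhibitor of E proteins needed for this lineage, was at −0.38. Wdfy4, required for cross-presentation, was at −0.37, and a dimmer probe of it stood at 1.04 but was not well above background for wild type. Xcr1 at its bound minus the median of the other 16 was −2.78 on the log2 scale. Cd8a, Btla and Cd24a, among others on this list, are also expressed by T cells, B cells or erythroid cells. The median of the other 16 therefore need not read type 1 cells alone. Ly75 and Gpr33 were not well above background on either array, and Itgae had no probe.

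**Figure D2:**
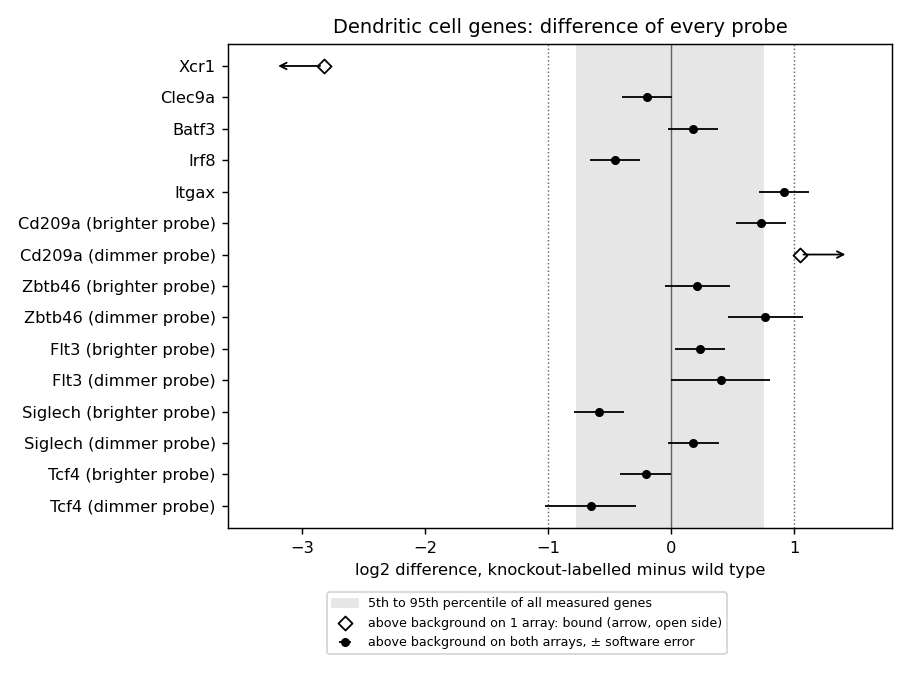
Log2 difference of each probe (knockout-labelled minus wild type), with bars of 1 software error, and diamonds with arrows for bounds where only 1 array was above background. Grey marks the 5th to 95th percentile of all measured genes (−0.76 to 0.75), and dotted lines mark 2-fold. Xcr1, at −2.82, lies apart from every other probe.

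The ligand of XCR1 was measured as well. Xcl1, made by NK and CD8 T cells, had signals of 741 and 665, a scaled difference of −0.68 ± 0.21, the lowest among 10 measured ligands and growth factors of dendritic cells. The genes next to Xcr1 on chromosome 9 include several other chemokine receptors. Of the 6 protein-coding genes on each side, 9 of 12 were measured, and their differences ran from −0.76 (Cxcr6) to 0.37 (Lztfl1), with none at 2-fold. Ccr3 was at −0.58 ± 0.21, Ccr9 at −0.39 and Ccr2 at −0.09. Most alike to Xcr1 in the order of bounds were Vmn1r174 (a pheromone receptor gene, a bound of 24.0-fold) and Jhy (14.6-fold) above it. Below it were Hal (histidine ammonia-lyase, 6.10-fold), Dppa2 (5.58-fold) and the basophil protease gene Prss34 (5.52-fold). Jhy is the only one of these 5 also on chromosome 9.

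Of the 10 genes, 3 are shared by conventional dendritic cells (Itgax, Flt3 and Zbtb46), and their brightest probes were above 0, although Zbtb46 fell to −0.01 with normexp background correction. Itgax, encoding the integrin CD11c, had signals of 3027 and 8209, a scaled difference of 0.92 ± 0.20, a ratio of 1.89. It stood higher than 96.8% of all measured genes and just short of 2-fold. It passed 2-fold with 6 of the 11 other ways of processing, at 1.08 with quantile normalization. Flt3, the growth factor receptor on which dendritic cell development depends, had 2759 and 4670 with its brighter probe, a difference of 0.24 ± 0.20. Its dimmer probe had 48.0 and 91.2, a difference of 0.40 ± 0.40. Both Flt3 values lay within 2 errors of 0. Zbtb46, a transcription factor of conventional dendritic cells, had 157 and 262, a difference of 0.21 ± 0.26. Its dimmer probe had 77.1 and 188, a difference of 0.77 ± 0.31. Flt3l, the ligand of FLT3, was at −0.48 ± 0.20 (4987 and 5145).

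In the list of 16 shared genes, 14 were measured, 5 above 0 and 9 below, none at 2-fold. The median was −0.18, but it turned to 0.08 with quantile normalization. After Itgax, the actin-bundling gene Fscn1 was highest, at 0.42 ± 0.29. The costimulatory genes Cd86 and Cd80 were at −0.47 ± 0.20 and −0.42 ± 0.20, although a dimmer probe of Cd80, not well above background for wild type, was at 0.65. Itgb7, an integrin subunit gene, was at −0.47. The genes Ccl17 and Ccl22, encoding chemokines of activated dendritic cells, were not well above background on either array.

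Cd209a, the type 2 lectin gene, was measured on both arrays with its brighter probe alone, which had signals of 1111 and 2644, a difference of 0.73 ± 0.20. The dimmer had 36.0, not well above background, and 124, with a bound of 2.07-fold higher. The dimmer probe passed the filter only through the array where it was high, so its direction adds nothing to that of the brighter, which stood higher than 94.6% of all genes. Of the 16 genes on the type 2 list, 15 were measured, 8 above 0 and 7 below, none at 2-fold, with a median of 0.03 that was −0.06 when scaled on the median of all probes. Rbpj, the Notch signalling transcription factor, was at 0.74 (other probe 0.26), and Irf4, a transcription factor of this lineage, at 0.59 ± 0.21. Dtx1, a Notch target, and Sirpa, the CD47 receptor that marks the subset, were both at −0.35 ± 0.20, and Klf4 was at −0.29.

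**Figure D3:**
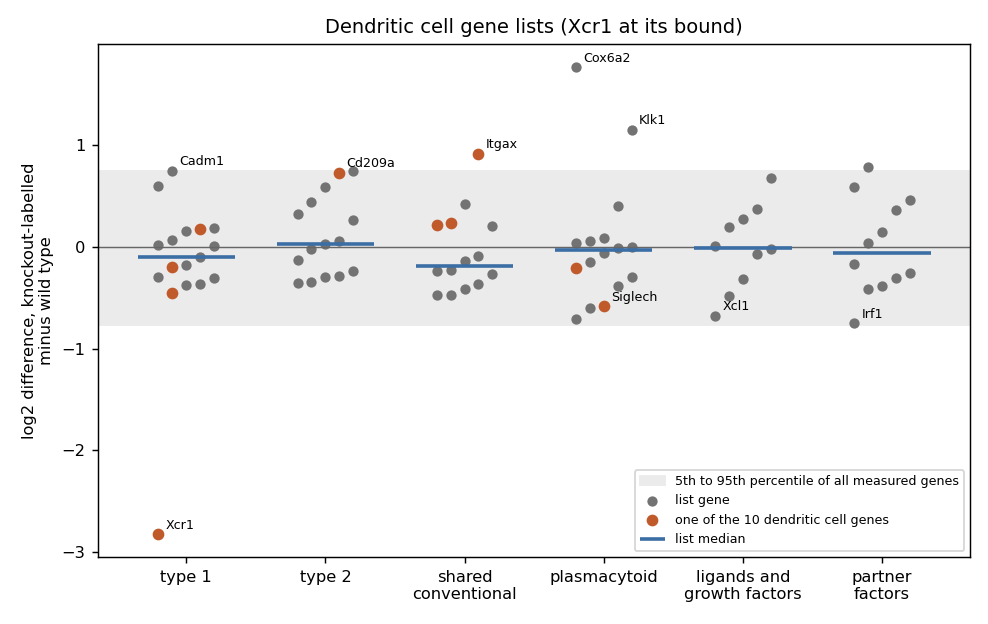
Log2 difference of every measured gene on 6 dendritic cell lists, with list medians as blue bars and the 10 genes of this account in orange. The medians lie between −0.18 and 0.03 and all change sign under at least 1 other way of processing, whereas Xcr1 lies far below its list.

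The plasmacytoid genes gave no single direction. Siglech, a lectin of plasmacytoid cells, had signals of 53421 and 51206 with its brighter probe, a scaled difference of −0.58 ± 0.20. Its dimmer probe had 1357 and 2210, a difference of 0.18 ± 0.20. The probes of Siglech thus had opposite signs, as did those of 46.8% of the 3232 genes with several measured probes. The brighter value was −0.13 with quantile normalization. Tcf4, the E protein that defines the plasmacytoid lineage, had 11938 and 14855 with its brighter probe, a difference of −0.21 ± 0.20 that was 0.05 with quantile normalization. Its dimmer probe had 67.7 and 61.9, a difference of −0.65 ± 0.37.

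Of the 18 genes on the plasmacytoid list, 16 were measured, and 2 passed 2-fold, both upward, where 2.57% of all measured genes did so. Cox6a2, a cytochrome oxidase subunit gene best known from muscle, had signals of 143 and 698, a difference of 1.77 ± 0.24. Klk1, a glandular kallikrein gene that the exocrine pancreas also expresses, had 381 and 1217, a difference of 1.15 ± 0.21. All 7 measured pancreas genes were higher on the same array, and their part in the value of Klk1 was not tested. Zeb2, a transcription factor, was next at 0.40. Smim5 was lowest at −0.71 ± 0.21, and Bst2, an interferon-induced surface protein gene, was at −0.60. The list median was −0.03, with 6 genes above 0 and 10 below, and it was 0.08 once the median of genes of similar signal was subtracted.

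Partner factors of BATF3 and IRF8 and the remaining growth factors were within 2-fold throughout, where 4.83% of all measured genes were at 2-fold. Of 12 partner genes all were measured, 6 above 0 and 6 below, with a median of −0.06 that turned positive in 6 of the 11 other ways of processing. Junb, a partner of BATF proteins, was at 0.78 ± 0.22 and Spi1, encoding PU.1, at 0.46 ± 0.29. Irf1, an interferon-induced factor, was lowest at −0.75 ± 0.20, Batf2 was at −0.41 and Ikzf1 at −0.38, with another probe of Ikzf1 at 0.40. Among the ligands, the chemokine gene Cxcl12 was at 0.67 ± 0.20, Csf1 at 0.38 (other probes 0.63 and 0.64) and Il15 at 0.27. Ltb, a lymphotoxin gene, was at −0.31. Their median was −0.01, with 5 genes above 0 and 5 below, and it turned positive in 5 of the 11.

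**Figure D4:**
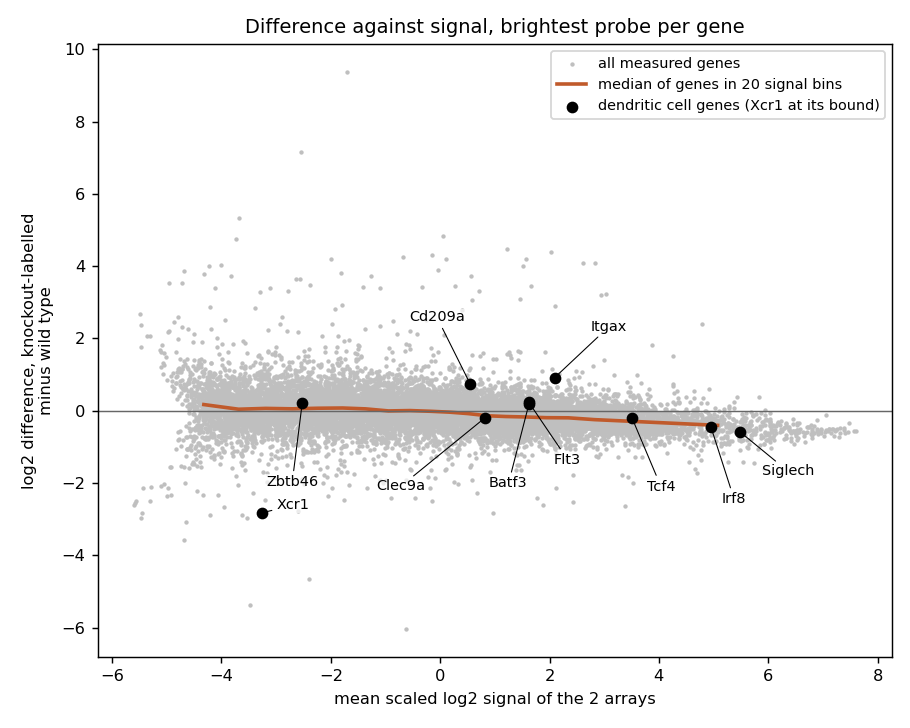
Log2 difference against mean scaled log2 signal for 13714 genes (grey), with the median in 20 signal bins (orange) and the 10 genes in black. The bin median falls from 0.17 at the dimmest to −0.40 at the brightest genes, where Irf8 and Siglech lie, and Xcr1, drawn at its bound, lies below its bin median.

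Differences depended on signal over the whole array, which bears on the bright members. The median difference was 0.17 in the dimmest of 20 signal bins and −0.40 in the brightest. With the bin median subtracted, Irf8 was at −0.05, Siglech at −0.18, Tcf4 at 0.08 and Clec9a at −0.06. By the same measure Itgax was at 1.11, Cd209a at 0.81, Flt3 at 0.41 and Batf3 at 0.35, and Xcr1, at its bound, at −2.89. Among the 9 genes above background on both arrays, Itgax and Cd209a lay outside the 5th to 95th percentile of genes of their own signal.

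**Figure D5:**
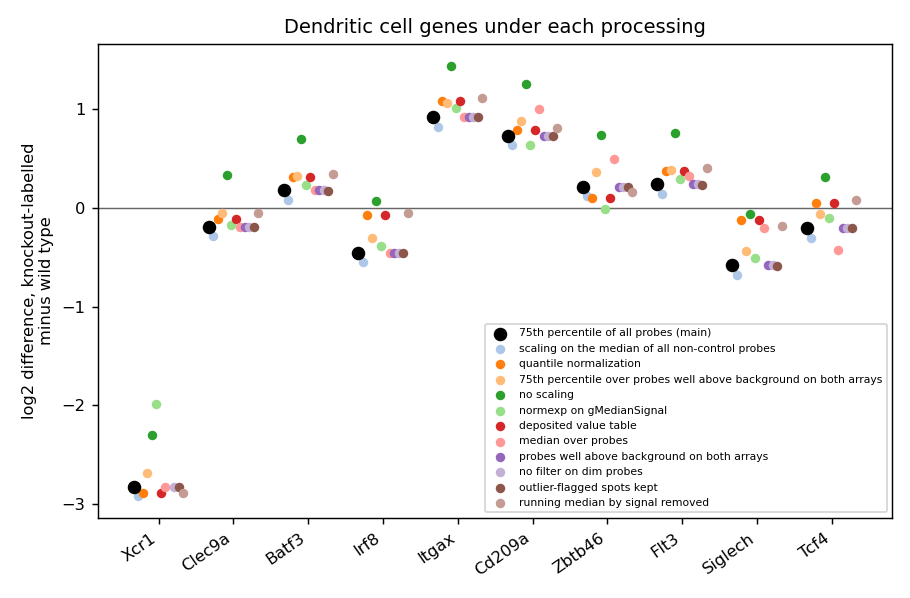
Log2 difference of each gene under 12 ways of processing, by its brightest probe except where the median over probes was taken, with the main values in black. Xcr1, drawn as its bound and with no value where both arrays had to be above background, stays between −2.92 and −1.98, and Itgax and Cd209a stay above 0, while Clec9a, Irf8, Zbtb46 and Tcf4 have values on both sides of 0.

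Marker lists of other spleen cells, some of which share these genes, differed among themselves. The 8 neutrophil and precursor genes, all above background on both arrays, had a median of −2.21 beside −2.82 for Xcr1 at its bound. They ran from −2.64 (Camp, other probe −3.14) to −1.50 (Elane). Mpo, an enzyme gene of granulocyte precursors, was at −2.41 ± 0.20. Flt3, which blood progenitors express, was at 0.24. The part of these cells in the value of Xcr1 was not tested. The 8 B cell genes had a median of 0.00, with Fcer2a alone at 2-fold (1.13), and 8 T cell genes had a median of −0.07 with none at 2-fold. Red pulp macrophage genes (7) had a median of −0.18 and NK cell genes (6) one of 0.21, with none at 2-fold. The 6 monocyte genes had a median of −0.53 with none at 2-fold, and all 6 were below 0. The lowest were F13a1 at −0.87, Ly6c1 at −0.69 (other probe −0.19) and the fractalkine receptor gene Cx3cr1 at −0.58 (other probe 0.02).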

How the data were processed

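Total RNA from 2 spleen samples was labelled with Cy3 and hybridised to 1-colour arrays, per the labels' protocols. The scanner files, as deposited, give linear spot intensity from Feature Extraction 11.0.1.1 under protocol GE1_1100_Jul11 with probe positions on mm9, per the file headers. The headers give the same scan date for both arrays. The value table the authors deposited holds log2 values. Its steps are not given in the sources used here, and 99.9% of its 39420 shared probes lay within 0.1 of a quantile normalization of the processed signals. Both of its columns have a median of 6.71.

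Outlier-flagged spots were left out (110 and 132) and none was saturated. Log2 processed signals were averaged per probe and each array's 75th percentile (974 and 1400) was subtracted. Probe accessions were looked up, ignoring versions, among RefSeq transcripts of GRCm38.p6, naming 27226 of 39420 probes. A gene was taken at its brightest probe well above background on at least 1 array. Where only 1 array was, the bound sets the bright signal against the higher of the dim signal and the lowest signal well above background. It leaves out the software error. Counts at 2-fold use measured differences. For 268 probes printed 10 times, the SD of the log2 difference over spots had a median of 0.11. The number of arrays limits precision.

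Named were all 10 genes with every probe, list genes at 2-fold and up to 3 of the largest differences in each direction above background on both arrays, the genes nearest Xcr1 in the order of bounds, and Loxl3. Genes on 8 marker lists and the neighbours of Xcr1 are named as examples, chosen after their values were seen. Members and lists were chosen with earlier results of these data known. The calculation of scaled differences was tested on simulated data, with changes planted only in probes above background on both arrays. The bounds, as for Xcr1, were not part of that test. Python 3.11.15 and limma 3.58.1 (normexp, offset 50) were used. The files hold a median spot signal and no mean, so normexp was run on the median signal.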

Additional observations from a re-analysis of the deposited data

How the results depend on the processing

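With 1 array a group, no array could be left out. No paired analysis was possible because each group has 1 sample. The results were recomputed in 10 other ways, and 1 more, subtracting the median of 20 signal bins, was chosen after the data were seen. Xcr1 stayed lower in all 10 that could give its value, from −2.92 to −1.98. It was at −2.30 without scaling and at −1.98 with normexp, where its gap to the other type 1 genes was −1.91. Keeping probes above background on both arrays removes Xcr1 by construction, leaving 0 of 9 genes at 2-fold lower. Members at 2-fold higher were 1 (Itgax) with quantile normalization, the deposited table, normexp, the percentile over probes above background on both arrays, and the bin medians subtracted, and 2 without scaling, with Cd209a. Among all genes, those at 2-fold higher and lower were 1466 and 102 without scaling, 151 and 186 with normexp, and 613 and 699 with no filter on dim probes. They were 235 and 233 among the 13035 genes with a probe above background on both arrays, against 352 and 310 in the main calculation. Scaling on probes above background on both arrays shifted the all-gene median by 0.15, with 70.9% of the calls as higher, scaling on the median 41.3%, normexp 44.8% and no scaling, with a shift of 0.52, 93.5%, against 53.2% in the main calculation. Without scaling the list medians were 0.42 (type 1), 0.55 (type 2), 0.34 (shared), 0.49 (plasmacytoid), 0.51 (ligands) and 0.46 (partners). The type 2 median was 0.33 with quantile normalization and with the deposited table and 0.28 with bin medians subtracted, and the shared median was 0.078, 0.079 and 0.13 in that order. Of 99 values for the other 9 genes, 77 moved by less than their software error and 22 by more. Not every way could move a value: either change to the filter on dim probes repeated the main values of these 9 genes. The median over probes repeated the value of any gene with 1 probe, as for Xcr1. Keeping outlier-flagged spots shifted the all-gene median by only −0.0011, and the deposited table lay close to quantile normalization. The 77, and the 10 for Xcr1, are thus no measure of stability. The cause of the shifts between ways of processing was not tested.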
